A study of Mus musculus with 6 samples.

Results

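The genes described here are 10 AP-1 and immediate early genes, Fos, Fosb, Fosl1, Fosl2, Jun, Junb, Jund, Egr1, Myc and Atf3, chosen by symbol from a table of 26231 genes. All 10 were found in the table. They were measured by RNA sequencing of mouse embryonic fibroblasts (MEFs) from FVB embryos carrying floxed Nf2 alleles, aged approximately 14 days by the labels, although the study's methods give an earlier day. Nf2 encodes Merlin, a tumor suppressor protein that links the membrane to the actin cytoskeleton, and the study asked how gene expression differs when it is lost. All cells had been immortalized with a lentivirus carrying the SV40 large T antigen and were kept without serum for 24 h before total RNA was taken. The control line, MEF Nf2fl/fl (labelled MEF WT), had received a vector-control lentivirus with a CMV-driven GFP, and the MEF Nf2-/- line (labelled MEF Nf2 KO) a lentivirus with CMV-driven Cre and GFP, so both lines derive from the floxed embryos and carry the large T antigen and a lentiviral vector, and by its label the second line has recombined alleles. There were 3 libraries per line, with replicate numbers 1, 2 and 3 and the library marks A, B and 2018. The methods name 1 line of each kind, and nothing says whether the libraries came from separate cultures, so every p-value here measures only the spread between these libraries.

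AP-1 is a dimer of basic leucine zipper proteins, in which a FOS family member (Fos, Fosb, Fosl1 or Fosl2) pairs with a JUN family member (Jun, Junb or Jund), and it binds DNA motifs related to TGANTCA. Several of these genes are immediate early genes, transcribed within minutes of a growth factor, serum, stress or adhesion signal without new protein synthesis, through kinases such as ERK and JNK and factors such as SRF and its ELK partners, and their transcripts are short-lived. In fibroblasts kept without serum their levels are known to be low and to rise sharply on stimulation, with Jund as the least inducible of the group. Egr1 is a zinc finger factor with the same kind of induction, Myc is a growth and ribosome biogenesis factor, and Atf3 is a stress-induced partner of JUN proteins.

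The deposited values were read as RPKM, reads corrected for exon length and for depth, and the libraries held between 13462143 and 73081959 reads as worked out from the size of the smallest steps between values. Nf2 itself was not lower in the libraries labelled Nf2 KO. Its level was 14.3, 13.7 and 13.1 RPKM in control replicates 1, 2 and 3 and 15.4, 12.9 and 13.9 RPKM in Nf2 KO replicates 1, 2 and 3, a difference of 0.03 ± 0.10 (log2, SE). A value summed over all exons can miss the loss of a floxed part, so it neither shows nor refutes the label, and directions below are those of the libraries as labelled. Of 10 fibroblast markers, 9 were at 1 RPKM or more in every library, and their summed level was 2493 to 3298 RPKM in control and 1735 to 2285 RPKM in Nf2 KO libraries. The summed levels of the other marker lists were 6.85 to 11.9 RPKM (7 macrophage markers, mostly Cd68), 1.46 to 4.45 RPKM (5 endothelial markers, mostly Kdr), 0.315 to 0.960 RPKM (6 epithelial markers) and 0.299 to 0.587 RPKM (3 of 5 skeletal muscle markers found). Both replicate 2 libraries stood apart from the other 4, as the members show below, and the calls between the lines, of the members and with the block of the gene lists, are also given without them. The nearest profiles and the interaction use all 6 libraries. In bulk RNA, fewer cells making a transcript and less of it per cell cannot be told apart.

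Promoter sequence is shown for 4 members that passed the test as higher in replicate 2 and whose window held one of the motifs searched. The letters of ATF and AP-1 motifs near a gene's start are what these factors are known to bind. Fosb, which was not tested, is not shown, although its window also held such a motif. A RefSeq window from 250 bases before to 50 bases after the start (GRCm38.p6) matched 7 of the 10 members, namely Fos, Fosb, Fosl2, Jun, Junb, Jund and Atf3, and not Fosl1, Egr1 and Myc. The windows lie at chr12:85473640-85473939, plus strand (Fos), chr4:95052173-95052472, minus strand (Jun), chr8:84978699-84978998, minus strand (Junb) and chr1:191183284-191183583, minus strand (Atf3), each reading 5′ to 3′ along its gene. Capitals mark TGACG, the core letters of CRE-like motifs, in Fos, in Junb and, as its reverse complement, in Atf3. In Jun they mark TGACATCA, which does not hold TGACG.
Fos: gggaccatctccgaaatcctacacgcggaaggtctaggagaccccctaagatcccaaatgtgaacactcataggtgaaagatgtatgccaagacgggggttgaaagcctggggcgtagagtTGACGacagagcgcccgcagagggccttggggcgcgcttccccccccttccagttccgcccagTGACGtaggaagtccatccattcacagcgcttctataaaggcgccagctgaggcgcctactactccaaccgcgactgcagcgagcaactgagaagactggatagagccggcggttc
Jun: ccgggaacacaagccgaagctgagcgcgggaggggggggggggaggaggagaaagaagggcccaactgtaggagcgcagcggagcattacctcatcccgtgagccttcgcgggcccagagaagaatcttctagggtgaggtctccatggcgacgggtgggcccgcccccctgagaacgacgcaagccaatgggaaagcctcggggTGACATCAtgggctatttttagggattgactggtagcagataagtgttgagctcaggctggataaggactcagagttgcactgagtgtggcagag
Junb: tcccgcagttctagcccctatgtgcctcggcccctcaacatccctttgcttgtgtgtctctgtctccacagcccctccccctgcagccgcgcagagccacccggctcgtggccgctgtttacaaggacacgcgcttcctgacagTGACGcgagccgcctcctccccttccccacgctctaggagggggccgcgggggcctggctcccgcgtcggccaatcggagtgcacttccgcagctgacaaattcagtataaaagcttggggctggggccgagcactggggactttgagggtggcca
Atf3: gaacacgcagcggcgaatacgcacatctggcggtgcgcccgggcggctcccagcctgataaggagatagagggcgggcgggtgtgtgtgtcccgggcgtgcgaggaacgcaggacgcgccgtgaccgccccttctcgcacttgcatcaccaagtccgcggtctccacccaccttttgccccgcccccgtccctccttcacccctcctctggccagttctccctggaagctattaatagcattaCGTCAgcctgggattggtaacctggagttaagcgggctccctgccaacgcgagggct

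Measured from the RefSeq start, TGACG began at -129 and -66 in Fos and at -106 in Junb, TGACATCA began at -45 in Jun, and TTACGTCA, the reverse complement of TGACGTAA, began at -10 in Atf3. TATAAA, left unmarked above, began at -33 in Fos and at 0 in Junb. The Fosb window held TGACGCAA at -60. The Fosl2 and Jund windows held none of the motifs searched, though Fosl2 was also higher in replicate 2. Neither of these windows includes the start of its gene in GENCODE vM21, so they say nothing of the letters there. Searched on both strands, TGACG was in 20.8% of all 32851 promoter windows, TGACATCA in 3.62%, TGACGTAA in 0.499%, TGACGCAA in 0.490%, TGACGTCA in 1.79%, TGANTCA in 7.81%, TATAAA in 13.6% and the CArG box, the motif of SRF, in 1.63%. TGACG lies within TGACGTCA, TGACGTAA and TGACGCAA, so these matches are not separate from one another. A match here is a description of the letters. The start used for Atf3 lies 34706 bases from the outermost gene start in GENCODE vM21, so the Atf3 window is that of an inner start. The distance is 1210 bases for Jund, 671 for Fosl2, 30 for Junb, 6 for Fosb and 0 for Fos and Jun. The Jund window lies wholly before the gene as placed by GENCODE.

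Jund was the most abundant member, with a mean of 70.5 RPKM over the 6 libraries and a range of 53.8 to 88.4. Then came Fosl1 (34.8), Jun (34.0), Junb (32.0), Egr1 and Myc (both 26.5) and Fosl2 (16.2), and far below them Fos (2.71), Atf3 (2.05) and Fosb (0.341 RPKM). The ranges of Fosl1, Jun, Junb, Egr1, Myc and Fosl2 over the libraries overlap, so their order is not fixed by these means. The range of Jund overlaps those of Fosl1, Jun, Junb and Egr1, so its first place is not fixed either. In control replicate 2 the highest member was Egr1 and Jund ranked 4th, and in Nf2 KO replicate 2 Junb (56.2) was above Jund (53.8).

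**Figure D1:**
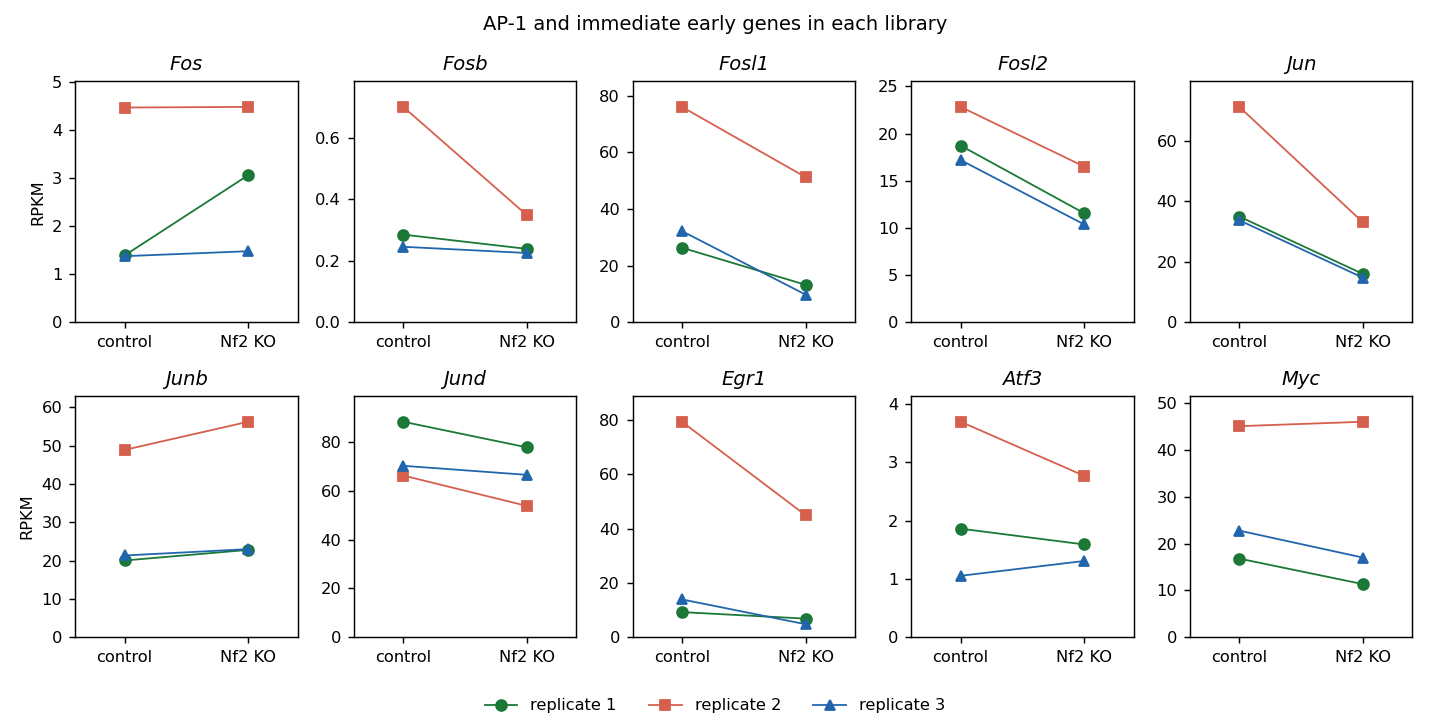
Level of each gene in RPKM (vertical axis, starting at 0, its scale set per gene) in the control and Nf2 KO library of each replicate number, joined by a line. Replicate 2 is highest in both lines for every gene except Jund, where it is lowest (66.3 and 53.8 RPKM), and the 3 lines for Jun, Fosl1, Fosl2, Egr1, Jund and Fosb all slope down towards Nf2 KO.

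Among the FOS family, Fosl1 (FRA-1, the FOS protein best known from ERK-driven invasion; chr19:5447547-5455946) was at 26.3, 76.0 and 32.2 RPKM in control replicates 1, 2 and 3 and at 13.2, 51.2 and 9.78 RPKM in Nf2 KO replicates 1, 2 and 3. Both replicate 2 libraries were the highest, and within each replicate number the Nf2 KO library was the lower, although the lines as a whole overlap. Of the exon bases of Fosl1 in GENCODE vM21, 57.2% are shared with Ccdc85b on the other strand, and whether the counting used strand is not given in the sources used here, so reads on the shared bases cannot be assigned with certainty. Ccdc85b itself was at 28.2 and 24.0 RPKM in replicate 2 and at 22.2 to 36.6 RPKM in the other libraries, a replicate 2 difference of -0.07 ± 0.11 (log2, SE, limma adjusted p = 0.646), and its own difference between lines was -0.45 (log2). Fosl2 (FRA-2; chr5:32135801-32157842) was at 18.7, 22.8 and 17.2 RPKM in control and 11.6, 16.5 and 10.4 RPKM in Nf2 KO replicates 1, 2 and 3, and every control library was above every Nf2 KO library.

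Fos (c-FOS, the most transient family member; chr12:85473890-85477273) was low, at 1.39, 4.46 and 1.37 RPKM in control and 3.06, 4.47 and 1.48 RPKM in Nf2 KO replicates 1, 2 and 3, which rests on 44 to 254 reads per library. Both replicate 2 libraries were nearly equal and the highest, and Nf2 KO replicate 1 was the only other library above 2. Fosb (chr7:19302696-19310051), which encodes a FOS protein that also has a shortened, long-lived isoform, was at 0.286, 0.701 and 0.246 RPKM in control and 0.239, 0.349 and 0.226 RPKM in Nf2 KO libraries. It had 24 to 103 reads per library and was below 1 RPKM throughout, and so was the 1 member of 10 that the filter on low values (at least 1 RPKM in at least 3 libraries) left out of the test.

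Among the JUN family, Jun (c-JUN, the JNK substrate that can also activate its own promoter; chr4:95049034-95052222) was at 35.0, 71.2 and 33.7 RPKM in control and 16.0, 33.0 and 14.7 RPKM in Nf2 KO replicates 1, 2 and 3. The Nf2 KO libraries all lay below the control libraries, but only just, since Nf2 KO replicate 2 (33.0) came close to control replicate 3 (33.7). Junb (chr8:84974484-84978718), which often opposes c-JUN in proliferation, was at 20.01, 48.9 and 21.3 RPKM in control and 22.8, 56.2 and 23.0 RPKM in Nf2 KO libraries. Here the lines overlap, the replicate 2 pair stood far above the rest, and each Nf2 KO library was slightly above its control. Jund (chr8:70698949-70700616), the JUN member known for steady expression in resting cells, was at 88.4, 66.3 and 70.3 RPKM in control and 77.9, 53.8 and 66.6 RPKM in Nf2 KO libraries, with both replicate 2 libraries the lowest. Antisense or neighbouring genes on the other strand share 52.6% of the exon bases of Jund (Gm11175, mean 0.111 RPKM), 7.52% of those of Junb (Prdx2) and 7.28% of those of Jun (Junos, mean 0.119 RPKM). Prdx2 was at 45.2 and 51.3 RPKM in replicate 2 and at 55.8 to 75.8 RPKM in the others, lower where Junb was higher.

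Egr1 varied most of all members, from 4.78 to 79.3 RPKM. It was at 9.24, 79.3 and 13.9 RPKM in control and 6.85, 44.9 and 4.78 RPKM in Nf2 KO replicates 1, 2 and 3, so that the replicate 2 library was 6.85-fold above the mean of the other 2 in control and 7.72-fold in Nf2 KO. Myc (chr15:61985391-61990374) was at 16.8, 45.1 and 22.8 RPKM in control and 11.3, 46.0 and 17.0 RPKM in Nf2 KO libraries, nearly equal between lines in replicate 2. Atf3 (chr1:191170296-191218039) was at 1.86, 3.70 and 1.05 RPKM in control and 1.59, 2.77 and 1.31 RPKM in Nf2 KO libraries, on 54 to 206 reads each, again highest in replicate 2.

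The comparison of the lines asked which members differ between the libraries labelled Nf2 KO and the controls. Jun and Fosl2 were the only members whose lines did not overlap. In Jun the control library held 2.19, 2.16 and 2.29 times the level of the Nf2 KO library in replicates 1, 2 and 3, and the log2 difference of log2(RPKM + 1) was -1.10 ± 0.39 (SE, n = 3 per line). Fosl2 was 1.62, 1.38 and 1.66 times higher in control (log2 -0.59 ± 0.19), Fosl1 1.99, 1.48 and 3.29 times (log2 -1.04 ± 0.65), and Egr1 1.35, 1.77 and 2.91 times (log2 -0.85 ± 1.015).

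Without a term for the replicate number, 0 of the 9 tested members passed an adjusted p of 0.05 in limma (two-sided, Benjamini-Hochberg over 11067 genes), against a background of 1.06% of all genes tested (117 genes). At an unadjusted p below 0.05 there were 2, Jun (adjusted p = 0.382) and Fosl2 (adjusted p = 0.296), and limma's voom on the recovered reads also gave 0 past the threshold and 2 unadjusted. The exact permutation test gave p = 0.1 for both, the smallest that 3 against 3 libraries can give. Libraries with the same replicate number deviated together from their line means in all 3 pairs. A shift shared by the replicate 2 libraries alone would give this in every pair, so it does not show that replicates 1 and 3 are paired. Once the replicate number was added as a block, Jun (adjusted p = 0.00243), Fosl2 (0.0127) and Fosl1 (0.0414) passed in limma, all lower in Nf2 KO, while Egr1 (0.0564) did not. That is 3 of 9 against a background of 7.53% of all genes called in either direction and 4.54% called lower with the block. For 7.52% of all genes tested, as for Jun and Fosl2, every Nf2 KO library was below every control library.

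The other members did not pass in either fit. With the block, limma's adjusted p was 0.206 for Myc (log2 -0.30), 0.207 for Junb (0.16), 0.222 for Jund (-0.18), 0.380 for Fos (0.28) and 0.647 for Atf3 (-0.10). Fosb, tested alone, differed by -0.14 on the log2 scale (exact permutation p = 0.5). Leaving out replicate 2 from the fit without a block, Jun, Fosl1 and Fosl2 passed among 484 genes in all, and leaving out replicate 1 or 3 no gene of the 11067 passed, so that setting says nothing of the members. With the block, Jun alone passed without replicate 1 (320 genes in all), and all 3 genes passed without replicate 2 (454 genes) or without replicate 3 (419 genes).

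**Figure D2:**
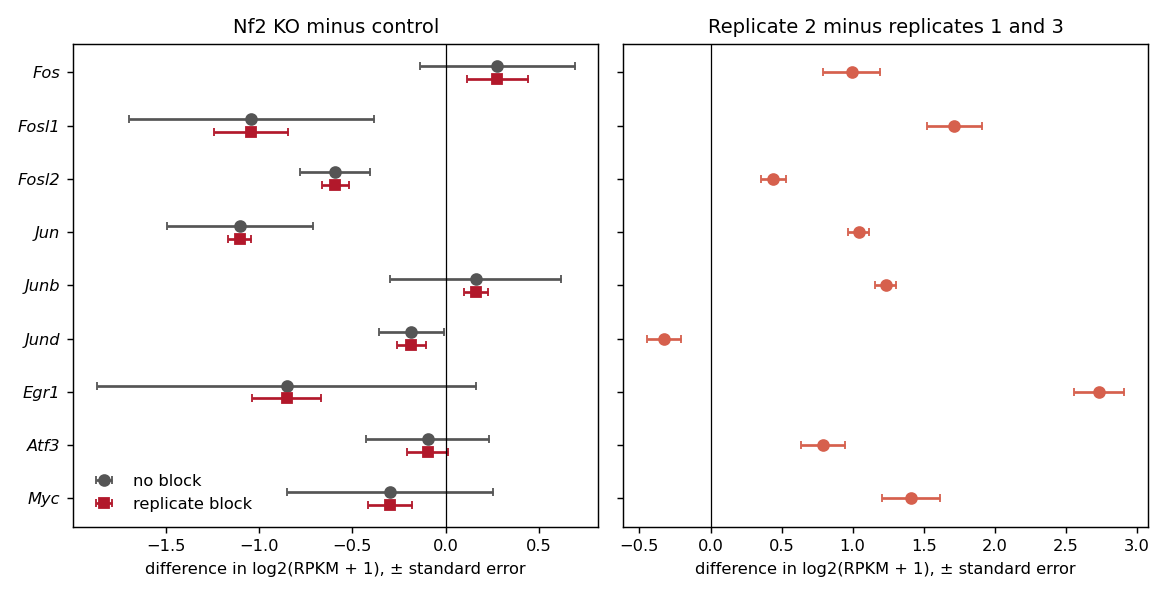
Difference in log2(RPKM + 1) for the 9 tested genes, Nf2 KO minus control (left, with standard errors from the fits with and without a replicate block) and replicate 2 minus replicates 1 and 3 (right, with the standard error). The block leaves the left values as they are and narrows their errors, for Jun at -1.10 from 0.39 to 0.06, and on the right every gene but Jund lies above 0.

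The make-up of each family was set mostly by Fosl1 and Jund. Fosl1 gave 44.8% to 73.1% of the summed FOS family level and was the largest share in every library except Nf2 KO replicate 3, where Fosl2 gave 47.5%. Fos gave 2.70% to 4.29% in control and 6.17% to 10.9% in Nf2 KO libraries, and Fosb at most 1.03%. Jund gave 35.6% to 66.8% of the summed JUN family level and was the largest share except in the replicate 2 libraries, where Jun (38.2%, control) and Junb (39.3%, Nf2 KO) exceeded it. The summed FOS level was 46.7 to 104 RPKM in control and 21.8 to 72.5 RPKM in Nf2 KO libraries, and the summed JUN level 125 to 186 and 104 to 143 RPKM.

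**Figure D3:**
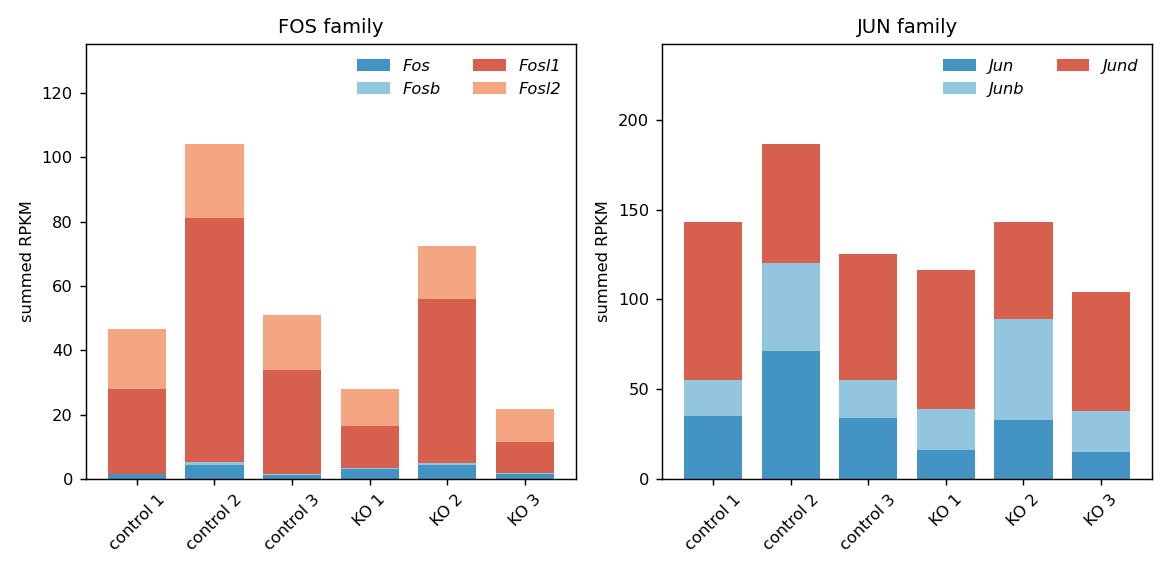
Summed RPKM of the FOS family (left) and JUN family (right) in each library, with the part of each gene stacked from 0. Fosl1 and Fosl2 make up nearly all of the FOS sum, and the JUN bars of Nf2 KO libraries hold less Jun (13.7% to 23.1%) than those of the control libraries (24.4% to 38.2%).

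Of 4 ratios looked at after the values were seen, that of Jun to Junb was the only one whose lines did not overlap. It was 1.75, 1.46 and 1.58 in control and 0.702, 0.588 and 0.642 in Nf2 KO replicates 1, 2 and 3. Jun thus exceeded Junb in every control library and was below it in every Nf2 KO library. The log2 difference was -1.31 (exact permutation p = 0.1, the smallest possible), while between replicate 2 and the others it was -0.19 (exact permutation p = 0.222). The ratio of Fosl1 to Fosl2 behaved otherwise, at 3.33 and 3.10 in the replicate 2 libraries and 0.943 to 1.87 in the other 4. The lines overlapped there (log2 -0.46, exact permutation p = 0.5), as they did for Jun to Jund (log2 -0.96, exact permutation p = 0.3; 1.41 higher in replicate 2) and for Fosl1 to Jun (log2 0.05, exact permutation p = 0.9).

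The labels give both replicate 2 libraries the mark B and say nothing of what it stands for, and their comparison with replicates 1 and 3 was made with the line as a covariate. Of the 9 tested members 8 were higher in replicate 2 and passed, against a background of 30.6% of all genes in either direction and 10.8% higher. On the log2(RPKM + 1) scale Egr1 was higher by 2.73 ± 0.18 (SE; limma adjusted p = 0.000736), which placed it 6th of 11067 genes by rise. Fosl1 followed at 1.71 ± 0.19 (adjusted p = 0.00276), Myc at 1.41 ± 0.20 (0.00522), Junb at 1.23 ± 0.07 (0.000455), Jun at 1.04 ± 0.07 (0.000689) and Fos at 0.99 ± 0.20 (0.0129), all by limma. Atf3 was higher by 0.79 ± 0.16 (limma adjusted p = 0.0111) and Fosl2 by 0.44 ± 0.09 (0.0118). The pseudocount lowers the values of Fos and Atf3, which were 1.33 and 1.11 with a pseudocount of 0.1 and 1.49 and 1.31 by voom on the recovered reads (Jun 1.07 and 1.08), so their place in this order is not fixed. The median over the 9 tested members was 1.04, and over all genes tested -0.08.

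Jund was the exception, at -0.33 ± 0.12 (limma adjusted p = 0.0740). It passed, lower, against replicate 1 alone (-0.47, limma adjusted p = 0.0213) and not against replicate 3 alone (-0.19, 0.176). Fosb was 2.64-fold higher in replicate 2 than in the mean of the other 2 libraries in control and 1.501-fold in Nf2 KO, and both its replicate 2 libraries were above the other 4 (log2 difference 0.28, exact permutation p = 0.111, the smallest that 9 assignments within the lines allow). Both replicate 2 libraries were above the other 4 for Fos, Fosl1, Junb, Egr1, Myc and Atf3 as well, as they were for 16.8% of all genes tested. In Jun and Fosl2 the difference between the lines made the groups overlap, since Nf2 KO replicate 2 lay below controls 1 and 3.

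Over all genes, 1195 were higher and 2191 (19.8%) lower in replicate 2, whereas with each library centred on its median the split was 1698 higher and 1536 lower. The same 8 members passed, higher, under that centring. Without Nf2 KO replicate 2 the passing members were Egr1, Fosl1, Jun and Junb (699 genes in all), and without control replicate 2 they were Egr1, Fosl1, Fosl2, Jun, Junb and Myc (832 genes). Each of these fits has 1 library in the replicate 2 arm, which is assumed to vary like the others. The replicate 2 libraries held 18964741 and 19287583 reads, within the range of the others. The summed endothelial markers were 3.89 and 4.45 RPKM in replicate 2 and 1.46 to 1.83 RPKM in the others, with 3 of the 5 under 0.1 RPKM in every library, and a ribosomal RNA entry, CT010467.1, was at 1506 and 1184 RPKM against 556 to 808 RPKM. Their part in the rise of the members was not tested.

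Whether the lines differed by another amount in replicate 2 than in replicates 1 and 3 was tested with an interaction term. In limma 0 of 11067 genes passed (0% called), and 313 had an unadjusted p below 0.05. Among the 9 tested members only Fosl1 did (0.72 ± 0.29 on the log2 scale, limma unadjusted p = 0.0428, adjusted p = 1.00), its fall between the lines being smaller in replicate 2. For Jun the interaction was 0.03 ± 0.17, and for Egr1 0.07 ± 0.39.

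The rest of the immediate early response was followed in a list of 42 other immediate early genes, of which 37 were tested. In replicate 2, 24 were higher and 1 lower, with a median log2 difference of 0.64, against 10.8% higher and 19.8% lower over all genes. Ctgf, a matricellular growth factor gene, rose by 3.17 ± 0.34 from 44.5, 71.9, 79.1 and 141 RPKM to 739 and 673 RPKM (limma adjusted p = 0.00241). Ptgs2, which encodes the prostaglandin synthase COX-2, rose by 2.69 ± 0.22, and Cyr61, a relative of Ctgf, by 2.10 ± 0.20. Bhlhe40, a circadian repressor gene, fell by 0.77. Between the lines 1 gene passed without the block, Ier5l, at 21.7, 25.8 and 21.3 RPKM in control and 14.1, 12.2 and 11.1 RPKM in Nf2 KO (log2 -0.83 ± 0.12, limma adjusted p = 0.0399). With the block 2 were higher (Gadd45b and Sik1) and 8 lower, where 7.53% of all genes were called and 4.54% were lower, and the list's median was -0.10 against -0.01 over all genes.

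Upstream of these genes, 26 kinases and factors were all tested. In replicate 2, 3 were higher and 2 lower, with a median of 0.01, against 10.8% higher and 19.8% lower over all genes. Srf, the serum response factor, rose by 1.00 ± 0.08, from 19.7 to 23.5 RPKM in 4 libraries to 39.6 and 46.5 RPKM. Its coactivator Mkl1 rose by 0.43 and Elk3 by 0.30, while Mapk3 (ERK1) fell by 0.77 and Elk1 by 0.27. Between the lines none passed without the block (6 did at an unadjusted p below 0.05), and with it Elk3 alone, lower (log2 -0.35, limma adjusted p = 0.0320), no larger a share than the 4.54% of all genes lower with the block. Of the 9 tested genes for proteins that bind AU-rich elements, which mark short-lived mRNAs, Zfp36l2 was higher in replicate 2 (0.48) and Tia1 lower (-0.43), and none passed between the lines in either fit, with 1 at an unadjusted p below 0.05 without the block and 3 with it.

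Of 12 other AP-1 and MAF factors 7 were tested, and 2 were higher and 1 lower in replicate 2, where 30.6% of all genes were called, 10.8% higher and 19.8% lower. The small MAF genes Maff and Mafk rose by 1.57 ± 0.10 and 1.10 ± 0.11, and Jdp2, a repressor that dimerizes with JUN proteins, fell by 0.41 ± 0.09. Mafk was also higher in Nf2 KO with the block (log2 0.45, limma adjusted p = 0.0187), the only 1 of the 7, where 7.53% of all genes were called. Both EGR corepressor genes were tested, and Nab2 was lower in replicate 2 (-0.61) as well as, with the block, in Nf2 KO (-0.72, limma adjusted p = 0.0201), while Nab1 differed by -0.40 between the lines and did not pass in either fit.

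Of 28 known AP-1 target genes 21 were tested, and their median difference between the lines was -0.70, against -0.01 over all genes. Without the block 3 passed, all lower in Nf2 KO, where 1.06% of all genes passed. Spp1 (osteopontin) was at 75.7, 31.7 and 80.1 RPKM in control and 10.9, 7.83 and 6.82 RPKM in Nf2 KO (log2 -2.65 ± 0.36, limma adjusted p = 0.0352). Tgfb1 (log2 -1.11 ± 0.14, limma adjusted p = 0.0302) was at 5.10 to 6.40 RPKM in control and 1.61 to 2.53 RPKM in Nf2 KO, and Mmp3, a matrix protease gene, at 1.20 to 1.94 RPKM and at 0, 0 and 0.0684 RPKM. Mmp3 reached the filter through its control libraries alone, so it could be tested only because it is high there, and its call is no support for the list. With the block 12 of the 21, Mmp3 among them, were lower and 0 higher, against 4.54% lower over all genes. Those added were Timp1, Cd44, Hbegf, Areg, Tnc, Vegfa, Hmga1, Mt1 and Mt2. Mmp3 also counts in the median of the list, and Areg was low, at a mean of 1.99 RPKM over all libraries. In replicate 2 the same list had 11 higher and 2 lower (10.8% and 19.8% over all genes), with Hbegf (2.05 ± 0.15) and Plaur (1.80 ± 0.11) among the largest rises, and the metallothionein gene Mt1 (-1.16) and Hmox1 (-0.54) falling.

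Of 24 MYC target genes 13 were higher and 1 lower in replicate 2, with a median of 0.41, against 10.8% higher and 19.8% lower over all genes. They were led by the ribosome biogenesis genes Rrs1 (0.90 ± 0.12) and Nop56 (0.75 ± 0.10) and by Odc1, of polyamine synthesis (0.78 ± 0.13), and the 1 lower was Cdk4 (-0.27). Between the lines none passed without the block (1 at an unadjusted p below 0.05) and Ldha alone with it, lower (log2 -0.69, limma adjusted p = 0.0198), again no larger a share than the 4.54% over all genes. Of 14 tested genes of the MYC network, Mxd4, Mxi1, Mxd3 and Mlx were lower in replicate 2 and Mycl higher, 5 of 14 called against 30.6% over all genes, the first 3 encoding partners of MAX that oppose MYC. Between the lines none of the 14 passed without the block (1 at an unadjusted p below 0.05), and with it Mycl was higher (log2 0.60, limma adjusted p = 0.0295) and Mxi1 lower (log2 -0.36, 0.0476), against 7.53% of all genes called.

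Of 16 tested genes of ATF4 and the integrated stress response, a pathway that also induces Atf3, 1 was higher in replicate 2, Ppp1r15a (1.04 ± 0.09), which encodes the GADD34 phosphatase subunit, and 7 were lower, among them Trib3 (-0.92), Atf5 (-0.90) and Ddit3 (-0.74), giving a median of -0.28 (over all genes, 10.8% were higher and 19.8% lower). Of 9 heat shock genes Hspb1 was higher (0.50) and Bag3 lower (-0.38). Between the lines none of either list passed without the block (0 at an unadjusted p below 0.05 in both), and with it Atf5, Cebpb, Hspa1a and Hspa1b were lower, 2 of 16 and 2 of 9 against 4.54% of all genes.

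As alternatives added after seeing the data, the list counts in replicate 2 were taken again with each library centred on its median, where 1698 genes were higher and 1536 lower. Other immediate early genes then had 26 higher and 0 lower, AP-1 targets 11 and 1, MYC targets 17 and 0, ATF4 and stress response genes 2 and 7, and upstream kinases and factors 6 and 1, so the single falls in the immediate early and MYC target lists did not pass there, nor did those of Nab2, Tia1 and Bag3. Without Nf2 KO replicate 2 (283 genes higher and 416 lower) these lists had 19 and 0, 6 and 2, 2 and 0, 1 and 2, and 1 and 1, and without control replicate 2 (320 and 512) 13 and 0, 7 and 0, 7 and 0, 1 and 4, and 1 and 1. Between the lines, leaving out replicate 2 altogether, AP-1 targets had 9 lower and 0 higher without the block, against 2.50% lower over all genes. With the block they had 10 lower and 0 higher, against 2.34%, and their median was -0.64. Mmp3 was among the genes tested in both. Other immediate early genes had 3 higher and 3 lower without the block and 3 higher and 4 lower with it. Over all genes 1.87% were higher without the block and 1.76% with it. With the block and without replicate 2 the calls of Elk3, Ldha, Atf5 and Cebpb were lost, since their lists had 0 genes called, as had the MYC network, while both EGR corepressor genes and 2 heat shock genes were lower, and 1 of the other AP-1 and MAF factors was higher. The genes for proteins that bind AU-rich elements again had 0 called.

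**Figure D4:**
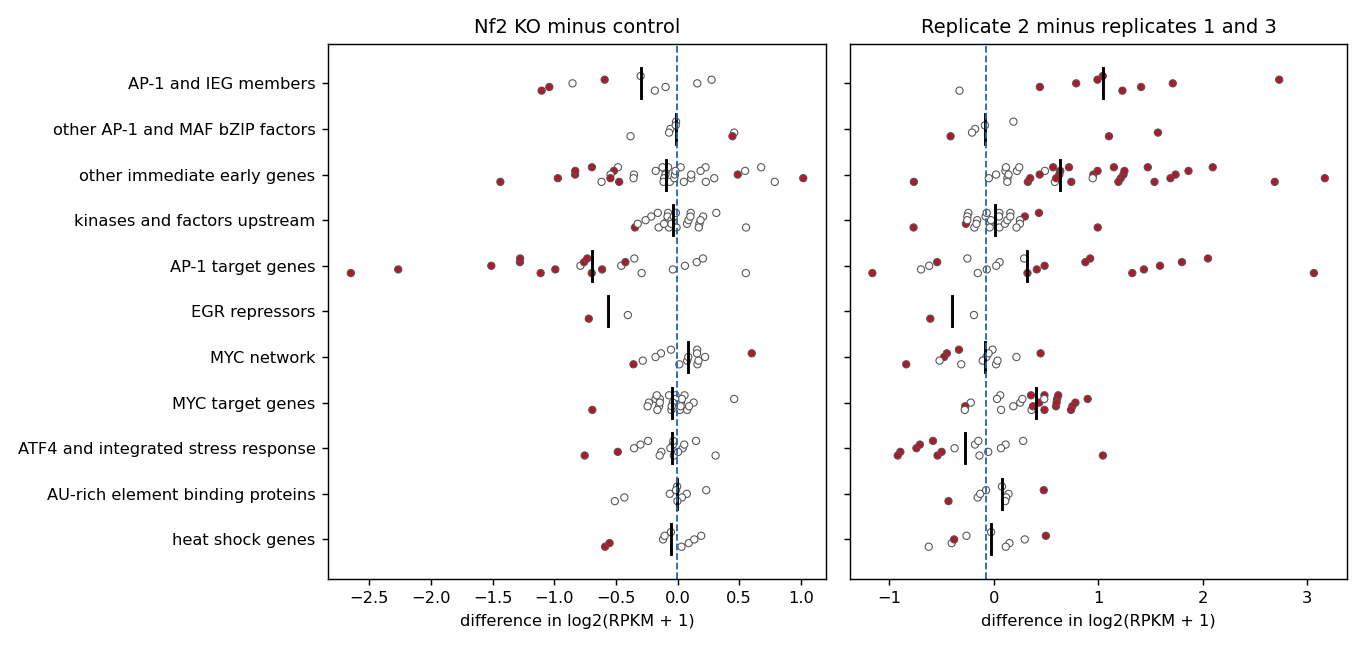
Difference in log2(RPKM + 1) of each tested gene (circles) by list, Nf2 KO minus control (left) and replicate 2 minus replicates 1 and 3 (right), with filled circles for an adjusted p below 0.05 (left, with the replicate block), black bars for list medians and a dashed line for the median of all genes tested. The AP-1 target list lies furthest left between the lines, with a median of -0.70, and the members (1.04), other immediate early genes (0.64) and MYC targets (0.41) lie furthest right in replicate 2.

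The genes whose profile over the 6 libraries lay nearest to each member were ranked by the root mean square of the difference in centred log2(RPKM + 1). Nearest to Egr1 were Ereg (0.248), Hbegf (0.429) and Ptgs2 (0.436), and nearest to Fosl1 were Wincr1 (0.217), Timp1 (0.239) and Npnt (0.242). For Jun they were Ccbe1 (0.108), Hmga2 (0.134) and Pcolce2 (0.168), for Fosl2 Fhl3 (0.0783), Rbpj (0.0816) and Socs5 (0.0921), and for Junb Hacd1 (0.0833), Pdk4 (0.0911) and Ripor2 (0.111). For Myc they were Sema7a (0.0578), Bmper (0.147) and Flrt2 (0.148), and for Atf3 Ehbp1l1 (0.0976), Glipr1 (0.110) and Zfp428 (0.117). Fos, at its low counts, lay nearest to the ribosomal RNA entry CT010467.1 (0.164), then to Chst7 (0.177) and Selp (0.183). Egr1 and Fosl1 thus have genes of the AP-1 target list among their nearest, Hbegf and Timp1, and Egr1 an immediate early gene, Ptgs2.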

How the data were processed

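Total RNA of 3 control and 3 Nf2 KO libraries was sequenced by GENEWIZ. The authors deposited 1 table of 26231 genes whose values fit RPKM. The submitters' processing notes name mm10, and the aligner and counter are not given in the sources used here. The unit and depth were worked out from exon lengths (GENCODE vM21, 26033 genes): 83.3% to 85.2% of values of up to 20 reads were whole within 0.05 reads, against 10% if evenly spread. All 6 value columns were used.

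The 11067 genes reaching 1 RPKM in 3 or more libraries were tested as log2(RPKM + 1) with limma 3.58.1 (R 4.3.3; trend and robust, two-sided, Benjamini-Hochberg, threshold 0.05), after a check on simulated data. Fold changes on this scale understate those of low genes. The line comparison had no covariate, as in the study's unpaired test, and that of replicate 2 had the line. Same-numbered libraries deviated together (correlations of their deviations from line means 0.552, 0.819 and 0.516), a pairing that comes from the data, so a replicate block was also fitted. Each line mean is over 3 libraries, so a shift of replicate 2 alone can make all of these correlations positive. Exact tests used scipy 1.17.1. Figures used matplotlib 3.10.9.

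The members and lists were chosen with earlier results of these data known. Named genes are Nf2, the 10 members, in each list and comparison the 3 largest rises and falls past the threshold or, with none, the 2 largest differences, and for each tested member whose log2 range exceeds 1 its 3 nearest profiles; other genes were named after their values were seen, and 1 gene that the rule names is not reported here. Alternatives were other normalizations, pseudocounts, filters and covariates, voom, and leaving out libraries.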

Additional observations from a re-analysis of the deposited data

How the results depend on the processing

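With the replicate block the line comparison called 833 genes instead of 117 and 3 members instead of 0, with the block and median centring 812 genes and 3 members, with no filter 9 genes and with a filter of 5 RPKM 63 genes. The block changed no other member's call. With the block and without replicate 1, 2 or 3 it called 320, 454 and 419 genes and 1, 3 and 3 members. Leaving out a library or a replicate number, it called 0 to 484 genes and 0 to 3 members: 484 without replicate 2, 0 without replicate 1 or 3, and 10, 10, 11 and 18 without control 3, Nf2 KO 1, control 1 and Nf2 KO 3. Uncalled differences changed sign there: Junb ranged from -0.26 to 0.56, Egr1 from -1.78 to 0.047, Myc from -0.85 to 0.11, Atf3 from -0.38 to 0.22 and Nf2 from -0.030 to 0.091 (log2), and without replicates 1 and 2, each with the block, Nf2 was -0.0015 and Atf3 0.013. Jun, Fosl1 and Fosl2 stayed lower throughout, from -1.46 to -0.76, -1.73 to -0.59 and -0.78 to -0.46.

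For replicate 2, no filter gave 884 genes and 5 members, and no covariate for the line 1976 genes and 5 members (Atf3, Egr1, Fos, Junb and Myc). Leaving out a library gave 699 to 3375 genes and 4 to 9 members, the 9 including Jund, lower. The causes were not tested. Over these alternatives 154 member and Nf2 values kept direction and call, 12 fell short of the threshold and 3 newly passed it. Median centring, quantile normalization, a pseudocount of 0.1, limma without trend and voom left the 8 members called. The precision for Fos, Fosb and Atf3 is limited by 24 to 254 reads per library.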
